A study of Mus musculus with 18 samples.

Results

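The corticotropin-releasing hormone, cholecystokinin, thyrotropin-releasing hormone and PACAP (pituitary adenylate cyclase-activating polypeptide) systems were described in the brains of *Pcm1*-/- and WT mice. The genes were picked by name, with earlier results of these data known, and are 3 ligand genes (*Crh*, *Cck*, *Adcyap1*), 1 binding protein gene (*Crhbp*) and 6 receptor genes (*Crhr1*, *Cckbr*, *Trhr*, *Trhr2*, *Vipr1*, *Adcyap1r1*). All 10 were among the 38561 genes counted, and all 10 passed the filter of 10 reads in at least 1 library, as did 17545 genes in total. Poly(A) RNA was sequenced from frontal cortex, striatum and hippocampus of 3 WT and 3 *Pcm1*-/- animals, giving 18 libraries with 3 per group. Both genotypes were adult littermates on a C57 Bl6J background, the mutation was a gene-trap insertion made in E14Tg2a.4 embryonic stem cells and backcrossed to that strain, and every animal gave all 3 regions. *Pcm1* encodes a scaffold protein of centriolar satellites.

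Neuropeptides are made as precursors, stored in dense-core granules and released to act on G protein-coupled receptors, mostly as slow modulators beside fast transmitters. In cortex and hippocampus *Crh* marks interneurons, *Crhbp* encodes a secreted protein that binds and limits the peptide, and *Crhr1* encodes its main receptor in forebrain. *Cck* is made by pyramidal cells and by a class of GABA interneurons, and *Cckbr* encodes the brain-type receptor. *Trhr* and *Trhr2* encode receptors for thyrotropin-releasing hormone, *Adcyap1* encodes the PACAP precursor, *Adcyap1r1* its selective receptor, and *Vipr1* a receptor shared by PACAP and vasoactive intestinal peptide. Several of these peptide genes are known to respond to cyclic AMP, which acts through promoter elements that CREB binds.

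The RefSeq promoter table (assembly GRCm38.p6) held 7 of the 10 genes, and the bases upstream of the start are shown for *Crhbp* and *Crhr1*, the genes called by genotype, and for *Cck* and *Adcyap1*, the genes with the steepest fall between regions. The windows are chr13:95444925-95445081 on the minus strand for *Crhbp*, chr11:104132531-104132780 on the plus strand for *Crhr1*, chr9:121495695-121495944 on the minus strand for *Cck* and chr17:93198767-93199016 on the plus strand for *Adcyap1*. Each runs 5′ to 3′ on the gene's strand and ends just before the RefSeq start, except for *Crhbp*, whose window ends before the GENCODE gene start. Capitals mark matches to a CRE half-site (TGACG, either strand) or a GC box (GGGCGG, either strand).
Crhbp: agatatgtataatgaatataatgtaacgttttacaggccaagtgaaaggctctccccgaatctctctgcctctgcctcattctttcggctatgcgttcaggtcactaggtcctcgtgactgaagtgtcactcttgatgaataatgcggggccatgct
Crhr1: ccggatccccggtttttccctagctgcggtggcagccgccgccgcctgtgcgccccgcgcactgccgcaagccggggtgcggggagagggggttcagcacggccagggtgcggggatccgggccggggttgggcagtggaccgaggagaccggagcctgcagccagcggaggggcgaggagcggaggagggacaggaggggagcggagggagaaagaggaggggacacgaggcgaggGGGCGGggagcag
Cck: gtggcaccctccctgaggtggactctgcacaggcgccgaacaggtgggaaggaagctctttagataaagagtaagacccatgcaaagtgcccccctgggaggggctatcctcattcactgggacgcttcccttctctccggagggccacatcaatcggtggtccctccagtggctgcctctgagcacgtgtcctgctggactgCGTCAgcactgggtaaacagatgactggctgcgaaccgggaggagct
Adcyap1: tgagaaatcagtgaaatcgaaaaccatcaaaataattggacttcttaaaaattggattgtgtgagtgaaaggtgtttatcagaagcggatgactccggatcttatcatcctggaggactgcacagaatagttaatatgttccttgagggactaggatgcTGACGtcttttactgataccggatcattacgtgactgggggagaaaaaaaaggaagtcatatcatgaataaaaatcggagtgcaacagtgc
The half-site stood at position -47 in *Cck*, on the opposite strand, and at position -91 in *Adcyap1*, counted back from the end of the window, and the GC box at position -13 in *Crhr1*. The *Crhr1* window ends at a RefSeq start upstream of the GENCODE gene start at chr11:104132855. The first bases after that RefSeq start were in no GENCODE transcript of the gene. The 157-base window of *Crhbp* held neither motif, nor a full CRE (TGACGTCA) nor TATAAA. The bases between this window and the RefSeq start of *Crhbp* (chr13:95444831) lie inside the GENCODE gene and were not searched. For comparison, the 157 bases farthest from the start, out of 250, were taken in each of 32851 RefSeq promoters. These held the half-site in 8.843% of cases, the GC box in 17.64%, the full CRE in 0.4018% and TATAAA in 7.549%. Among the same promoters, windows of 250 bases held the half-site in 17.77% of cases and the GC box in 32.74%, while the full CRE was in 1.546% and TATAAA in 12.37%. None of the 7 windows, with *Crhbp* at its shorter length, held the full CRE or TATAAA. *Crh*, *Trhr* and *Trhr2* had no entry in the promoter table and were not searched. These matches are letters in a window and were not tested for use.

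Counts on genes ran from 24950537 to 33405081 per library, and between 2 and 12198 reads lay behind a value of these genes. *Pcm1* itself was at 8.89% to 10.2% of the WT level in the 3 regions. The labels of the regions held: summed markers of striatal projection neurons were at 5162 to 6675 CPM (read counts relative to library size, scaled by trimmed mean of M values) in striatum and at 93.1 to 192.5 CPM elsewhere, and markers of cortical and hippocampal projection neurons were at 2363 to 2893 CPM in frontal cortex and 11.9 to 80.1 CPM in striatum. The hippocampal field markers were at 675.9 to 914.0 CPM in hippocampus and at 201.6 to 606.0 CPM elsewhere. Some libraries held other tissue: WT striatum replicate 3 had 5858 CPM of choroid plexus markers against 7.96 to 137.2 CPM in the other striatum libraries, and thalamus and habenula markers in hippocampus were at 559.7, 268.1 and 545.7 CPM in WT replicates 1 to 3 but 138.0, 123.0 and 302.9 CPM in *Pcm1*-/-. Choroid plexus markers were uneven in hippocampus too, at 6136, 2298 and 2083 CPM in WT replicates 1 to 3 and 2301, 210.8 and 4047 CPM in *Pcm1*-/-. The striatum libraries were split by sequencing lane, with all 3 WT ones in lane 5 and the *Pcm1*-/- ones in lanes 3 and 4, and effects of lane and of genotype cannot be told apart there. In these bulk samples, fewer cells of a type and less RNA per cell cannot be told apart.

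Per length of transcript, as RPKM (the same scaled counts per kilobase of exon), the 10 genes spanned a wide range in WT frontal cortex. *Cck* was at 272.2 ± 6.97 RPKM (SD, n = 3), far above the rest. *Adcyap1r1* at 31.1 ± 0.729 RPKM and *Cckbr* at 30.8 ± 3.40 RPKM did not differ beyond their spread, and the same was true of *Crhr1* at 8.98 ± 0.0721 and *Crhbp* at 8.86 ± 0.647 RPKM. *Adcyap1* (5.44 ± 1.06), *Vipr1* (5.18 ± 0.284) and *Crh* (3.86 ± 0.826 RPKM) followed, and the receptors *Trhr2* (1.71 ± 0.450) and *Trhr* (0.845 ± 0.183 RPKM) were lowest. In WT striatum the order was led by *Adcyap1r1* at 27.4 ± 2.42 RPKM, *Cck* at 7.67 ± 3.37 RPKM and *Trhr2* at 5.86 ± 0.926 RPKM, while *Adcyap1* was last at 0.181 ± 0.0708 RPKM. In WT hippocampus *Cck* led at 171.6 ± 9.88 RPKM, followed by *Adcyap1r1* at 28.1 ± 1.26 and *Crhbp* at 8.73 ± 1.43 RPKM.

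**Figure D1:**
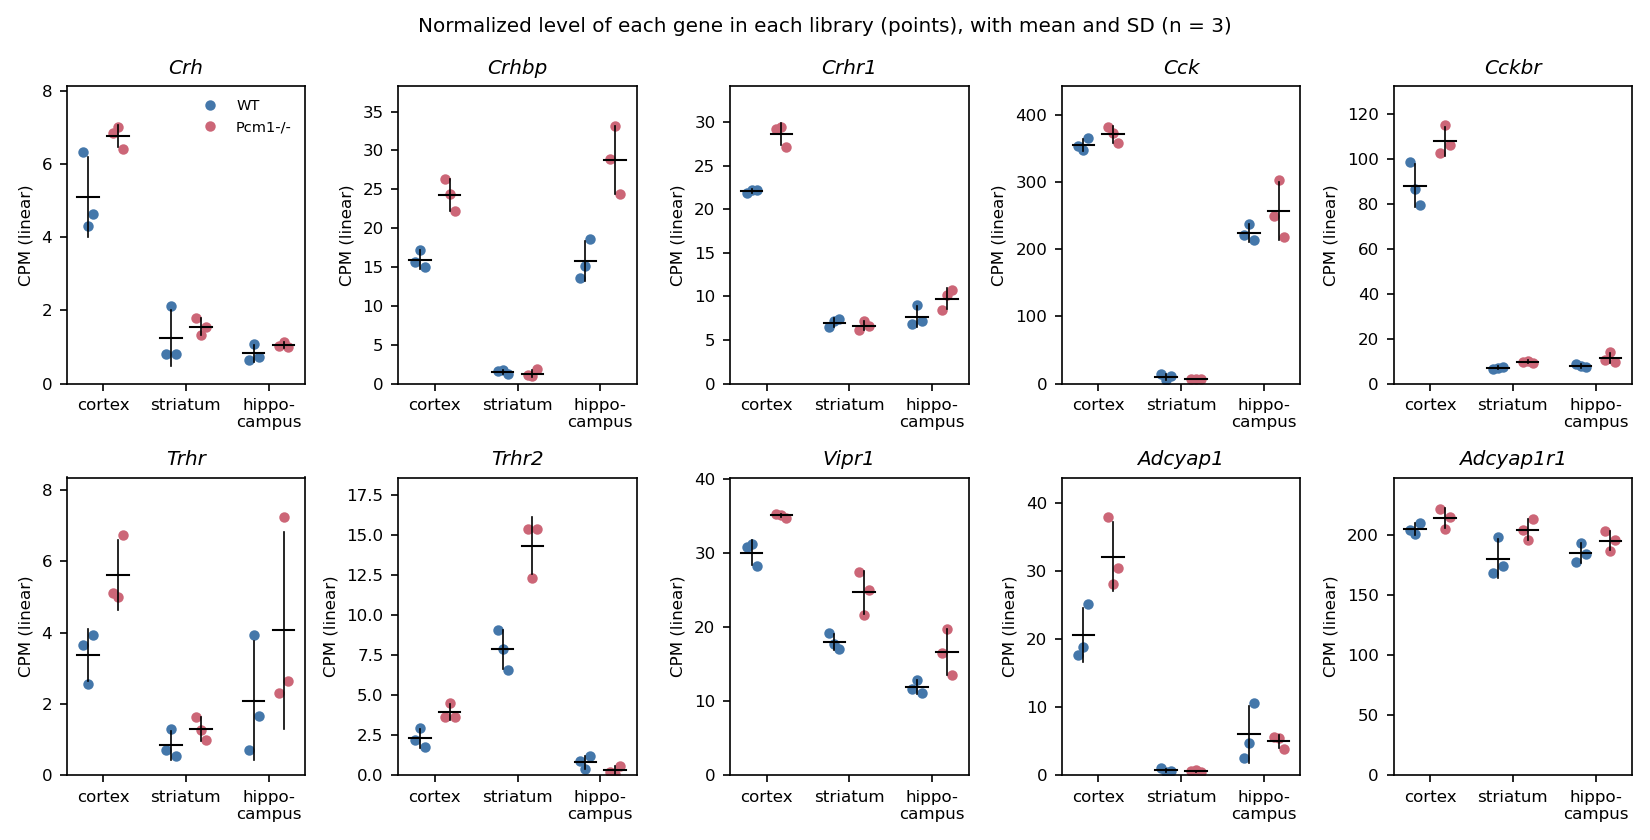
Normalized level (CPM, linear axis from 0) of each of the 10 genes in every library of frontal cortex, striatum and hippocampus, with WT in blue and *Pcm1*-/- in red, and the mean and SD of 3 libraries in black. *Cck* falls from 346.9 to 364.9 CPM in WT cortex to 5.15 to 13.7 CPM in WT striatum, and *Crhbp* is higher in *Pcm1*-/- in cortex and hippocampus with no overlap.

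The first comparison asked how each gene's RNA level differed between genotypes within a region. In frontal cortex 2 of the 10 genes were called at an adjusted p under 0.05 in edgeR's quasi-likelihood test, against 1.74% of all genes tested, and both were in the corticotropin-releasing hormone system. *Crhbp*, the binding protein gene, was at 15.7, 17.2 and 15.0 CPM in the WT libraries and at 26.3, 24.4 and 22.1 CPM in *Pcm1*-/-. The lowest *Pcm1*-/- library stood well above the highest WT library. The rise was 1.52-fold (log2 0.60, SE 0.0888, edgeR adjusted p = 0.0188, n = 3 per group). *Crhr1*, the receptor gene, was at 21.9, 22.2 and 22.2 CPM in WT, a spread of only 0.177 CPM (SD), and at 29.2, 29.4 and 27.2 CPM in *Pcm1*-/-. It rose 1.29-fold (log2 0.37, SE 0.0641, edgeR adjusted p = 0.0339, n = 3 per group), and the groups did not overlap. *Crh* itself, the ligand, was at 6.34, 4.30 and 4.65 CPM in WT and at 6.87, 7.01 and 6.43 CPM in *Pcm1*-/-. Its groups stood just apart, with 6.43 against 6.34 CPM at the border, and it was not called (log2 0.40, SE 0.151, edgeR adjusted p = 0.257, n = 3 per group). Both calls were sensitive to the samples and the model. With edgeR, the adjusted p of *Crhbp* was 0.122 without *Pcm1*-/- replicate 1, 0.0793 without *Pcm1*-/- replicate 2 and 0.0550 without WT replicate 1, and that of *Crhr1* was 0.190, 0.120 and 0.0850 without *Pcm1*-/- replicates 1, 2 and 3 and 0.0786 and 0.0826 without WT replicates 1 and 2. With lane as a covariate the adjusted p was 0.0595 for *Crhbp* and 0.127 for *Crhr1*, and in 1 fit of all 18 libraries 0.0960 and 0.116, while the log2 difference over all alternatives run stayed between 0.54 and 0.67 for *Crhbp* and between 0.34 and 0.40 for *Crhr1*.

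The cholecystokinin genes in frontal cortex were not called. *Cck*, the most abundant of the peptides, was at 346.9 to 364.9 CPM in WT and 357.3 to 382.4 CPM in *Pcm1*-/-, and the groups overlapped (log2 0.05, SE 0.0511). *Cckbr* was at 98.7, 86.5 and 79.5 CPM in WT and at 102.7, 115.1 and 106.2 CPM in *Pcm1*-/-, with no overlap (log2 0.28, SE 0.0836, edgeR adjusted p = 0.149, n = 3 per group). So the receptor gene stood apart between genotypes where its ligand gene did not, although neither passed the test.

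The 2 thyrotropin-releasing hormone receptor genes had the largest cortical differences in log2 of the 10, at low counts. *Trhr* was at 3.64, 2.55 and 3.94 CPM in WT and at 5.11, 5.00 and 6.75 CPM in *Pcm1*-/- (log2 0.72, SE 0.190, edgeR adjusted p = 0.108, n = 3 per group). *Trhr2* was at 2.21, 2.93 and 1.73 CPM in WT and at 3.64, 4.51 and 3.65 CPM in *Pcm1*-/- (log2 0.78, SE 0.200, edgeR adjusted p = 0.103, n = 3 per group). In both the groups did not overlap, and neither passed the edgeR test. DESeq2 called both at nearly the same log2 differences (adjusted p = 0.0214 for *Trhr* and 0.0296 for *Trhr2*), in a test that called 3.95% of all genes in this region. *Trhr2* overlaps a gene on the other strand (*Gm20388*, chromosome 8, where *Pcm1* also lies), and with the strand setting of the counting not given in the sources used here, reads of the 2 genes cannot be told apart.

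In the PACAP system of frontal cortex the ligand gene differed most. *Adcyap1* was at 17.7, 18.8 and 25.1 CPM in WT and at 37.8, 28.0 and 30.4 CPM in *Pcm1*-/-, with no overlap (log2 0.64, SE 0.149, edgeR adjusted p = 0.0795, n = 3 per group). Whether it was called depended on the setting. WT replicate 3 was the highest WT library, and without it *Adcyap1* was called, at a log2 difference of 0.81 and an edgeR adjusted p of 0.0123, as it was with DESeq2 (adjusted p = 0.0014) and with no count filter (edgeR adjusted p = 0.0179). It was not called with lane as a covariate (log2 0.54, edgeR adjusted p = 0.256), in 1 fit of all 18 libraries (edgeR adjusted p = 0.499) or without any other library (edgeR adjusted p = 0.124 to 0.317). *Vipr1*, the shared receptor, was at 30.7, 31.2 and 28.2 CPM in WT and 35.3, 35.1 and 34.8 CPM in *Pcm1*-/- (log2 0.22, SE 0.0620, edgeR adjusted p = 0.142, n = 3 per group), a small difference between groups that did not overlap. *Adcyap1r1*, the selective receptor, was at 201.0 to 210.5 CPM in WT and 205.6 to 222.2 CPM in *Pcm1*-/-, and these ranges overlapped (log2 0.05, SE 0.0519).

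Across frontal cortex, 8 of the 10 genes did not overlap between genotypes, all higher in *Pcm1*-/-, against 21.3% of all genes tested in either direction and 12% in that direction. All 10 log2 differences were above 0, against 48.1% of all genes, and their median was 0.38, against -0.0066 over all genes. Several cell type markers moved with these values in the same libraries. Summed markers of projection neurons were at 2363 to 2423 CPM in WT and 2744 to 2893 CPM in *Pcm1*-/-, with 1 of 4 markers called, 3 of 4 above 0 and a median log2 difference over the 4 of 0.03, and markers of GABA neurons at 1085 to 1197 and 1318 to 1403 CPM, with 1 of 7 called and 7 of 7 above 0. Markers of oligodendrocytes were at 1505 to 2027 CPM in WT and 1363 to 1441 CPM in *Pcm1*-/-, those of microglia at 230.5 to 301.6 and 197.1 to 225.0 CPM, those of endothelium at 120.0 to 170.3 and 106.9 to 115.1 CPM, and those of blood at 88.1 to 142.5 and 29.8 to 63.2 CPM. No marker of these 4 lists was called or had a log2 difference above 0. The sums of thalamus and habenula (162.7 to 177.2 CPM in WT and 181.4 to 199.5 CPM in *Pcm1*-/-, 2 of 5 above 0) and of septum (16.4 to 18.7 and 19.8 to 21.4 CPM, 2 of 3 above 0) were higher in *Pcm1*-/- without overlap, with 0 called. No marker of the lists named here was at 0 in all 3 libraries of a group, and the part of cell makeup in the peptide gene differences was not tested.

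In striatum 0 of the 10 genes were called by edgeR, against 0.0285% of all genes. At an unadjusted p under 0.05 there were 4 (*Cckbr*, *Trhr2*, *Vipr1* and *Adcyap1r1*), all higher in *Pcm1*-/-, against 13.5% of all genes and 6.54% in that direction, and DESeq2 called *Cckbr*, *Trhr2* and *Vipr1* (adjusted p = 0.0469, 9.66e-05 and 0.0148), against 2.79% of all genes. *Trhr2* was at 9.08, 7.89 and 6.60 CPM in WT and at 15.4, 12.3 and 15.4 CPM in *Pcm1*-/-, the largest log2 difference of the 10 in this region (0.87, SE 0.146, edgeR adjusted p = 0.109, n = 3 per group). *Cckbr* was at 6.32, 7.13 and 7.50 CPM in WT and at 9.79, 10.2 and 9.08 CPM in *Pcm1*-/- (log2 0.48, SE 0.117, edgeR adjusted p = 0.185, n = 3 per group). *Vipr1* was at 19.2, 17.7 and 17.1 CPM in WT and at 27.4, 21.6 and 25.0 CPM in *Pcm1*-/- (log2 0.46, SE 0.101, edgeR adjusted p = 0.148, n = 3 per group). These 3 receptor genes were the ones whose groups did not overlap, against 19% of all genes and 9.6% in that direction. Summed markers of striatal projection neurons stood apart in the same direction, at 5162 to 6128 CPM in WT and 6244 to 6675 CPM in *Pcm1*-/- (6 of 6 markers above 0), as did those of GABA neurons at 2236 to 2258 and 2420 to 2469 CPM (5 of 7 above 0). Lower in *Pcm1*-/- without overlap were the sums of oligodendrocytes (7303 to 7395 CPM in WT and 4424 to 7173 CPM in *Pcm1*-/-, 0 of 4 above 0), astrocytes (1070 to 1649 and 918.0 to 1049 CPM, 0 of 4) and thalamus and habenula (126.0 to 234.6 and 112.9 to 121.9 CPM, 1 of 5). No marker of these lists was called or at 0 in all 3 libraries of a group, and their part in the receptor gene differences was not tested. Lane followed genotype in all of them, as above.

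Striatal *Cck* was uneven among the WT libraries. It was at 13.7, 5.15 and 11.2 CPM in WT replicates 1 to 3 and at 6.04, 6.14 and 6.26 CPM in *Pcm1*-/-, so that 2 WT libraries were high and 1 was below every *Pcm1*-/- library (log2 -0.70, SE 0.307, edgeR adjusted p = 0.371, n = 3 per group). Summed markers of cortical and hippocampal projection neurons, which make much *Cck*, were at 80.1, 13.1 and 30.1 CPM in the same WT libraries and at 11.9, 15.8 and 20.3 CPM in *Pcm1*-/-. The 2 WT libraries with the highest marker sums were the 2 with the highest *Cck*, and none of the 4 markers was called or at 0. Carry-over from cortex was not tested. *Crh*, *Crhbp*, *Trhr* and *Adcyap1* were at 0.470 to 2.13 CPM in all 6 striatum libraries, with log2 differences of -0.28 to 0.63 and overlapping groups, and *Crhr1* was at 6.43 to 7.37 CPM in WT and 6.11 to 7.13 CPM in *Pcm1*-/-. *Adcyap1r1* was at 168.8 to 198.8 CPM in WT and 195.7 to 213.7 CPM in *Pcm1*-/- (log2 0.18, SE 0.0769, edgeR adjusted p = 0.361, n = 3 per group).

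**Figure D2:**
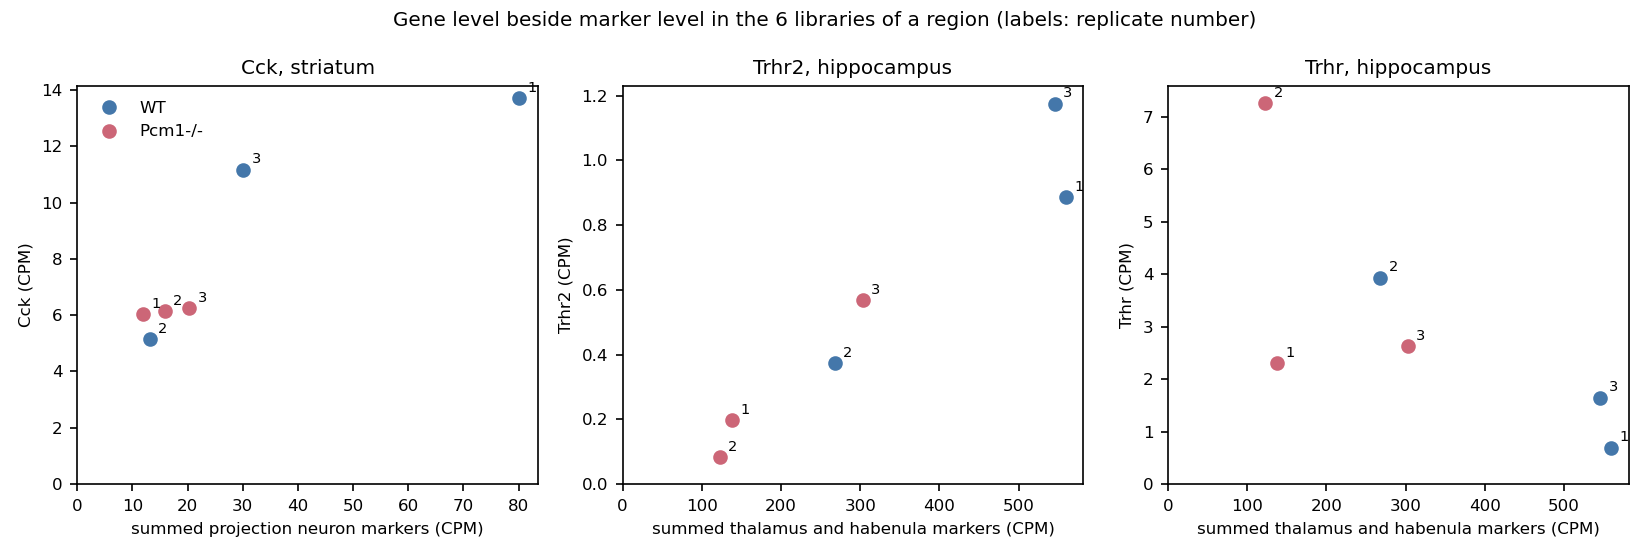
Gene level (CPM, vertical) against summed marker level (CPM, horizontal) in the 6 libraries of a region, WT in blue and *Pcm1*-/- in red, numbered by replicate. Striatal *Cck* is highest in the WT libraries with 80.1 and 30.1 CPM of projection neuron markers, and hippocampal *Trhr2* is highest in the WT libraries with 559.7 and 545.7 CPM of thalamus and habenula markers, where *Trhr* is lowest.

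In hippocampus 0 of the 10 genes were called by edgeR, against 0.0171% of all genes. At an unadjusted p under 0.05 there were 3 (*Crhbp*, *Cckbr* and *Vipr1*), all higher in *Pcm1*-/-, against 9.89% of all genes and 4.84% in that direction, and DESeq2 called *Crhbp* (adjusted p = 0.00039), against 1.26% of all genes. *Crhbp* was at 13.5, 15.1 and 18.5 CPM in WT and at 28.9, 33.1 and 24.4 CPM in *Pcm1*-/-, with a wide gap between the groups. Its log2 difference was 0.85 (SE 0.154, edgeR adjusted p = 0.391, n = 3 per group). In 1 edgeR fit of all 18 libraries *Crhbp* was called at an adjusted p of 0.0223, as were 205 of all 17545 genes in this region. *Cckbr* was at 8.66, 7.60 and 7.19 CPM in WT and at 10.5, 13.9 and 9.43 CPM in *Pcm1*-/- (log2 0.51, SE 0.166), and *Vipr1* at 11.7, 12.8 and 11.1 CPM in WT and 16.5, 19.7 and 13.5 CPM in *Pcm1*-/- (log2 0.46, SE 0.146). These 3 genes were the ones whose hippocampal groups did not overlap, against 17.1% of all genes and 10.6% in that direction. In the same libraries the summed markers of projection neurons were at 1607 to 2139 CPM in WT and 2162 to 2706 CPM in *Pcm1*-/- (4 of 4 above 0), and those of septum at 33.7 to 50.2 and 53.6 to 75.2 CPM (2 of 3 above 0). The sums were lower in *Pcm1*-/- without overlap for endothelium, at 99.5 to 145.6 and 82.3 to 93.7 CPM, and blood, at 102.6 to 177.0 and 27.5 to 57.0 CPM (0 of 3 above 0 in each). No marker of these 4 lists was called or at 0 in all 3 libraries of a group, and their part in the differences was not tested. *Cckbr* and *Vipr1* were higher in *Pcm1*-/- without overlap in each of the 3 regions, as were 1.9% of all genes, and passed the edgeR test in none. Each animal gave all 3 regions, and these are not independent repeats.

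The thyrotropin-releasing hormone receptor genes varied widely among the hippocampus libraries, and neither was called. *Trhr2* was at 0.886, 0.375 and 1.18 CPM in WT, from 10 to 35 reads, and at 0.197, 0.0839 and 0.569 CPM in *Pcm1*-/-, from 2 to 19 reads (log2 -1.46, SE 0.653, edgeR adjusted p = 0.515, n = 3 per group). *Trhr* was at 0.693, 3.93 and 1.65 CPM in WT and at 2.30, 7.26 and 2.63 CPM in *Pcm1*-/- (log2 0.93, SE 0.637, edgeR adjusted p = 0.648, n = 3 per group). With a library left out, the log2 difference of *Trhr* ran from 0.23 (without *Pcm1*-/- replicate 2) to 1.74 (without WT replicate 2) and that of *Trhr2* from -2.48 (without *Pcm1*-/- replicate 3) to -1.08 (without *Pcm1*-/- replicate 2). With the replicate number as a block, *Trhr* was at 1.01 (SE 0.233, edgeR adjusted p = 0.138) and *Trhr2* at -1.59 (SE 0.387, edgeR adjusted p = 0.15). Replicate 2 was highest for *Trhr* and lowest for *Trhr2* in each genotype, and the thalamus and habenula marker sum given above was also lowest in replicate 2 of each genotype. This was not particular to that list. The sums of oligodendrocytes, ependyma, hippocampal fields, astrocytes, microglia and hypothalamus were also lowest in replicate 2 of each genotype. Those of projection neurons, GABA neurons and septum were highest there. None of the 5 thalamus and habenula markers was called or above 0, and none was at 0 in all 3 libraries of a group. The part of any of these lists in the *Trhr* and *Trhr2* values was not tested. *Adcyap1* was at 2.54, 4.76 and 10.6 CPM in WT and at 5.56, 5.50 and 3.83 CPM in *Pcm1*-/- (log2 -0.30, SE 0.459), and without WT replicate 3 its log2 difference was 0.42. The other 4 genes overlapped between the groups: *Crh* at 0.655 to 1.09 and 0.987 to 1.13 CPM, *Crhr1* at 6.82 to 9.07 and 8.39 to 10.7 CPM, *Cck* at 213.0 to 238.1 and 218.1 to 303.3 CPM, and *Adcyap1r1* at 177.3 to 193.9 and 187.1 to 203.3 CPM in WT and *Pcm1*-/-.

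**Figure D3:**
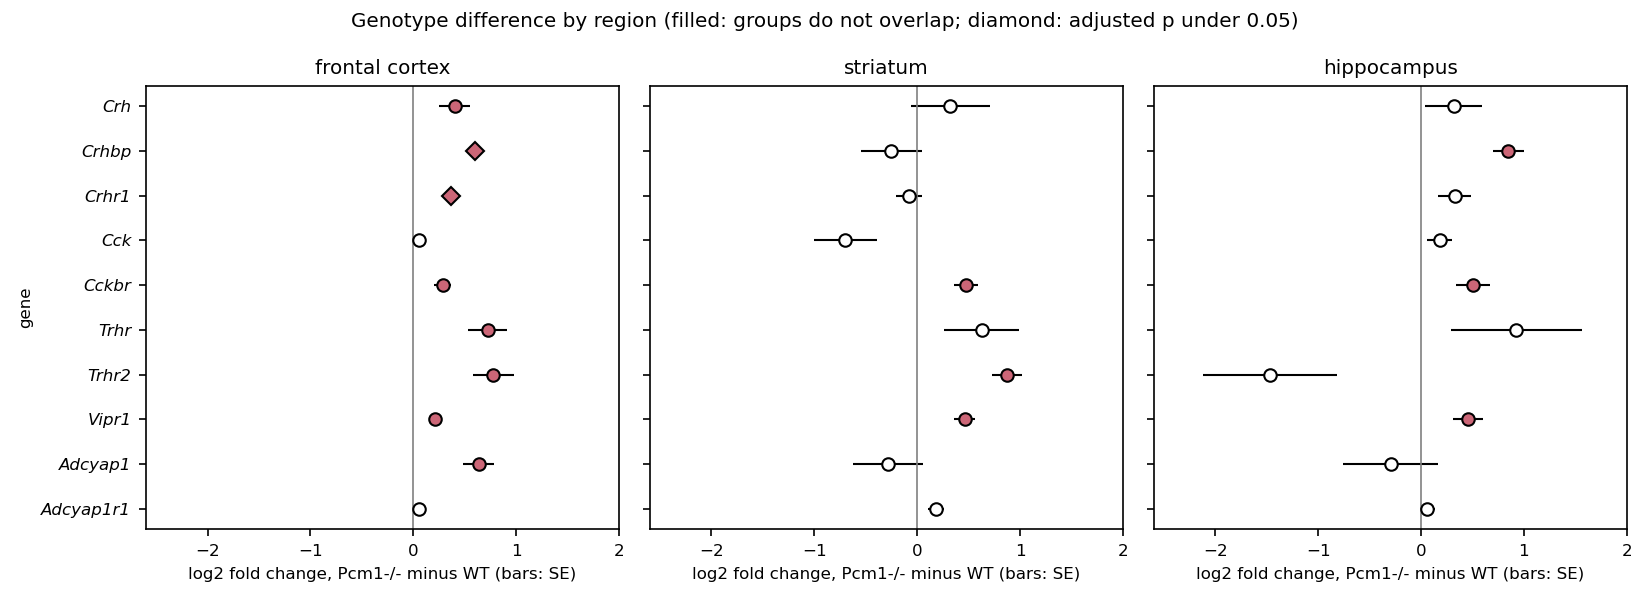
Log2 fold change of *Pcm1*-/- over WT (horizontal, bars are the SE) for the 10 genes in each region. Filled symbols mark groups that do not overlap and diamonds an edgeR adjusted p under 0.05, which only *Crhbp* (0.60) and *Crhr1* (0.37) in frontal cortex reach.

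Whether the genotype difference itself varied between regions was tested in 1 edgeR fit of all 18 libraries. None of the 10 genes was called, against 0.0114% of all genes, and 4 had an unadjusted p under 0.05, against 5.54% of all genes. *Trhr2* had the smallest, 0.0017 (edgeR adjusted p = 0.438). Its genotype difference in hippocampus was lower than that in frontal cortex by a log2 value of -2.21 (SE 0.564, edgeR adjusted p = 0.432). *Crhbp* followed, with an unadjusted p of 0.0048 (edgeR adjusted p = 0.543), and its genotype difference in striatum lay at -1.13 relative to hippocampus (SE 0.293). *Cck* was called in this test when WT striatum replicate 2, its lowest striatum library, was left out (edgeR adjusted p = 0.0247, against 0.746 with it).

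The second comparison asked how the 10 genes differed between regions, within WT and, in other animals, within *Pcm1*-/-. Between striatum and frontal cortex 9 of the 10 genes were called in WT, against 41.5% of all genes, and 9 in *Pcm1*-/-, against 54.3%. In each genotype 8 of these were lower in striatum, against 20.9% and 27.1% of all genes in that direction. *Adcyap1r1* was not among them in either genotype. The ligand genes *Cck* and *Adcyap1* had the steepest gradients: the log2 difference, striatum minus frontal cortex, was -5.15 (SE 0.282) in WT and -5.91 (SE 0.131) in *Pcm1*-/- for the former, and -4.90 (SE 0.515) and -5.82 (SE 0.211) for the latter. *Crh*, the other ligand gene, was lower in striatum by less, at -2.03 (SE 0.366) and -2.11 (SE 0.141). *Crhbp* was lower at -3.38 (SE 0.174) and -4.25 (SE 0.207) and *Cckbr* at -3.65 (SE 0.116) and -3.47 (SE 0.125), while *Crhr1*, *Trhr* and *Vipr1* lay between -2.11 and -0.50. *Trhr2* went the other way and was higher in striatum than in cortex, by 1.78 (SE 0.308) in WT and 1.87 (SE 0.239) in *Pcm1*-/-. The largest edgeR adjusted p among these calls was 0.0140, for *Trhr* in WT.

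Between hippocampus and frontal cortex 6 of the 10 genes were called in WT, against 29.8% of all genes, and 7 in *Pcm1*-/-, against 41.5%, all lower in hippocampus, against 15.3% and 21.2% in that direction. *Cckbr* had the steepest fall in WT, at a log2 difference of -3.50 (SE 0.115), and stood at -3.27 (SE 0.124) in *Pcm1*-/-, where *Trhr2* was lower still at -3.68 (SE 0.350). *Crh* was at -2.62 (SE 0.383) and -2.70 (SE 0.148), *Crhr1* at -1.53 (SE 0.125) and -1.56 (SE 0.100), *Vipr1* at -1.34 (SE 0.0943) and -1.09 (SE 0.127), and *Adcyap1* at -1.78 (SE 0.415) and -2.71 (SE 0.160). So the receptor gene *Cckbr* was far lower in hippocampus than in cortex while its ligand *Cck* was lower by only -0.67 (SE 0.232) in WT and -0.53 (SE 0.101) in *Pcm1*-/-. The *Cck* difference was called in *Pcm1*-/- (edgeR adjusted p = 0.0017) and not in WT (edgeR adjusted p = 0.0530), where it was called with the animal as a block (0.0334), with no count filter (0.0332), in 1 fit of all 18 libraries (0.0115), with DESeq2 (0.0196) and without WT striatum replicate 1 (0.0293) or replicate 2 (0.0007), libraries that entered only the estimate of spread. *Crhbp* was the gene nearest to equal between these regions in WT, at 15.0 to 17.2 CPM in cortex and 13.5 to 18.5 CPM in hippocampus, a log2 difference of -0.02 (SE 0.148). *Trhr*, at -0.69 (SE 0.508) in WT and -0.49 (SE 0.375) in *Pcm1*-/-, was called in neither genotype. It was called without hippocampus replicate 2, its highest hippocampal library, at -1.52 in WT and -1.19 in *Pcm1*-/- (edgeR adjusted p = 0.0301 and 0.0010). With other libraries left out its difference came as near to 0 as -0.28 in WT and -0.21 in *Pcm1*-/-, and the edgeR adjusted p reached 0.680 and 0.707.

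Between striatum and hippocampus 5 of the 10 genes were called in WT, against 29.2% of all genes, and 8 in *Pcm1*-/-, against 45%. *Trhr2* and *Vipr1* were higher in striatum: *Trhr2* by a log2 difference of 3.26 (SE 0.341) in WT and 5.55 (SE 0.332) in *Pcm1*-/-, where its hippocampal counts were down to 2 reads, and *Vipr1* by 0.61 (SE 0.0942) and 0.59 (SE 0.128). *Cck*, *Crhbp* and *Adcyap1* were lower in striatum, at -4.48 (SE 0.275), -3.36 (SE 0.174) and -3.12 (SE 0.511) in WT and at -5.38 (SE 0.128), -4.49 (SE 0.207) and -3.11 (SE 0.231) in *Pcm1*-/-. *Crh*, *Crhr1* and *Trhr* were called in *Pcm1*-/- alone, at 0.59 (SE 0.160), -0.55 (SE 0.106) and -1.61 (SE 0.421), and at 0.59 (SE 0.400), -0.13 (SE 0.127) and -1.31 (SE 0.555) in WT. The *Crh* call was lost without *Pcm1*-/- striatum replicate 1 (edgeR adjusted p = 0.0643) and in 1 fit of all 18 libraries (0.151), and in WT *Trhr* was called without hippocampus replicate 1 (edgeR adjusted p = 0.0179). Over all libraries left out, the log2 difference of *Trhr* in WT ran from -1.76 to -0.49 (edgeR adjusted p = 0.0179 to 0.501). *Cckbr* and *Adcyap1r1* were called in neither genotype. *Adcyap1r1*, at 168.8 to 222.2 CPM over all 18 libraries, was not called in any of the 6 contrasts between regions with the 9 libraries of a genotype fitted by edgeR. In WT its striatum was lower than its cortex by a log2 difference of -0.18 (SE 0.0787, edgeR adjusted p = 0.0888), and it was called without WT striatum replicate 2 (-0.26, edgeR adjusted p = 0.0344) and in 1 fit of all 18 libraries (-0.18, edgeR adjusted p = 0.0288).

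**Figure D4:**
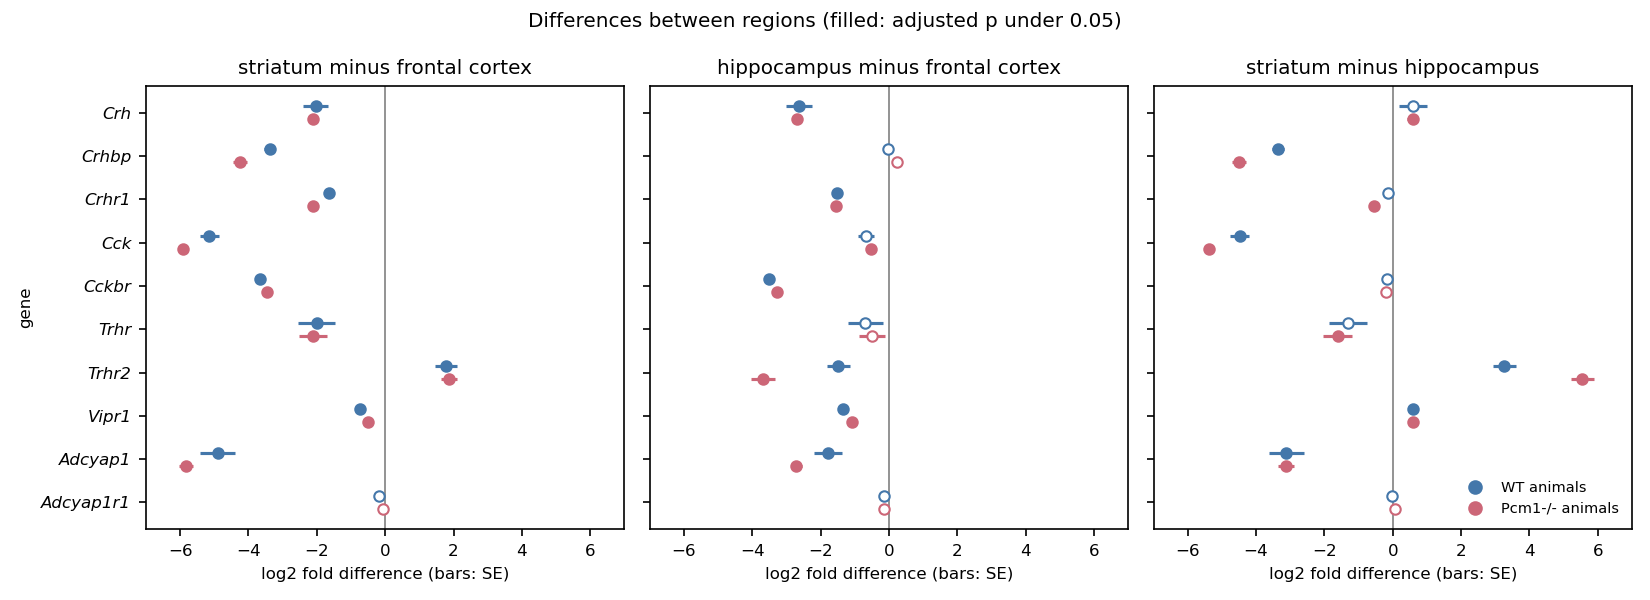
Log2 difference between regions (horizontal, bars are the SE) for the 10 genes, fitted in the 9 WT libraries (blue) and the 9 *Pcm1*-/- libraries (red), with filled symbols at an edgeR adjusted p under 0.05. *Cck* reaches -5.15 and -5.91 between striatum and frontal cortex, *Trhr2* alone is above 0 there, and *Adcyap1r1* has open symbols in all 6 contrasts.

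Of 15 further genes of these systems, ligands and receptors of the same families and the peptide-degrading enzymes *Trhde* and *Pgpep1*, 8 passed the filter and 0 were called by edgeR between genotypes in each region, with 1, 0 and 2 at an unadjusted p under 0.05 in frontal cortex, striatum and hippocampus, against 15.3%, 13.5% and 9.89% of all genes. *Trh*, the ligand of *Trhr* and *Trhr2*, was at 0.941 to 1.79 CPM in frontal cortex, 0.0839 to 2.77 CPM in hippocampus and 4.04 to 6.56 CPM in striatum, so its RNA, like that of *Trhr2*, was highest in striatum. *Vip*, an interneuron peptide that also acts at *Vipr1*, was at 42.7 to 54.1 CPM in cortex, 3.89 to 11.9 CPM in hippocampus and 0.576 to 0.956 CPM in striatum. *Vipr2*, the other receptor shared by PACAP and VIP, was at 7.89, 3.63 and 4.00 CPM in WT hippocampus and at 1.09, 1.01 and 2.15 CPM in *Pcm1*-/-. It had no overlap and the opposite sign to *Vipr1* (log2 -1.87, SE 0.408, edgeR adjusted p = 0.391, n = 3 per group), in the libraries whose thalamus and habenula marker sums differed. DESeq2 called it (adjusted p = 0.0025), against 1.26% of all genes there, as did 1 edgeR fit of all 18 libraries (adjusted p = 0.0378), against 205 of 17545 genes. *Crhr2*, the second receptor of this family, and *Cckar*, the other cholecystokinin receptor, were highest among striatum libraries in WT replicate 3, at 5.06 and 2.90 CPM, the library with 5858 CPM of choroid plexus markers. *Crhr2* was at 0.228 to 0.885 CPM in cortex and 1.68 to 4.62 CPM in hippocampus. Its lowest and highest hippocampal values were in the libraries with 210.8 and 6136 CPM of choroid plexus markers, whose part was not tested. *Cckar* was at 0.0375 to 1.08 CPM in hippocampus. In all 6 frontal cortex libraries it had 0 reads, which allows up to 3 reads or 0.0898 to 0.113 CPM in each. *Ucn*, which encodes the ligand urocortin, had at most 6 reads in any library and was not tested.

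Of 15 genes of peptide processing and dense-core granules, all tested, 3 rose in frontal cortex and 0 fell, against 1.41% of all genes higher, and 0 were called in striatum or hippocampus, where 6 and 2 had an unadjusted p under 0.05, against 13.5% and 9.89% of all genes. In frontal cortex 8 of the 15 did, against 15.3% of all genes. The 3 that rose were *Scg2* and *Vgf*, which encode granule proteins that are cleaved to peptides, and *Cadps2*, which primes granules for release. *Scg2* was at 178.9, 183.4 and 180.1 CPM in WT and 326.6, 247.7 and 262.2 CPM in *Pcm1*-/- (log2 0.62, SE 0.0942, edgeR adjusted p = 0.0195, n = 3 per group). *Vgf* was at 270.9, 240.7 and 246.5 CPM in WT and 349.3, 325.3 and 331.9 CPM in *Pcm1*-/- (log2 0.40, SE 0.0605, edgeR adjusted p = 0.0195, n = 3 per group). *Cadps2* was at 111.8, 132.2 and 111.0 CPM in WT and 170.3, 160.2 and 152.1 CPM in *Pcm1*-/- (log2 0.44, SE 0.0786, edgeR adjusted p = 0.0367, n = 3 per group). The groups of all 3 stood apart. In the same libraries the summed markers of projection neurons (2363 to 2423 CPM in WT and 2744 to 2893 CPM in *Pcm1*-/-) and of GABA neurons (1085 to 1197 and 1318 to 1403 CPM) were also higher, and those of oligodendrocytes, microglia, endothelium and blood lower, as given above, and their part in these rises was not tested. None of the 3 was called with lane as a covariate (edgeR adjusted p = 0.0584 for *Scg2* and *Vgf* and 0.0719 for *Cadps2*), and 1 fit of all 18 libraries called *Scg2* (edgeR adjusted p = 0.0120) but not *Vgf* (0.0698) or *Cadps2* (0.447). With 1 library left out, the *Scg2* call was lost without *Pcm1*-/- replicates 1 and 3 (edgeR adjusted p = 0.0563 and 0.0739) and WT replicates 1 and 2 (0.0656 and 0.0808). The *Vgf* call was lost without *Pcm1*-/- replicates 1, 2 and 3 (0.123, 0.0766 and 0.0833) and WT replicate 2 (0.0743), and that of *Cadps2* without *Pcm1*-/- replicates 1, 2 and 3 (0.195, 0.119 and 0.0924) and WT replicate 1 (0.0965). Over all alternatives the log2 difference stayed between 0.49 and 0.69 for *Scg2*, 0.38 and 0.46 for *Vgf* and 0.39 and 0.53 for *Cadps2*. No precursor-cleaving or amidating enzyme of the list was called in the edgeR tests of 6 libraries, but the cleaving enzyme gene *Pcsk2* was in frontal cortex without WT replicate 3, and the amidating enzyme gene *Pam* was in striatum with DESeq2, both higher in *Pcm1*-/- and named after their values were seen.

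The genes whose log2 CPM followed each of the 10 most closely were sought among 12785 genes by Pearson correlation over the 18 libraries, which mix 3 regions of the same animals. *Cck* was followed most closely by *Rtn4r* (r = 0.997), *Pter* (0.995) and *Slc17a7* (0.995), the last the vesicular glutamate transporter of cortical and hippocampal projection neurons. *Crhbp* was followed by *Cadps2* (0.987), *Sstr3* (0.987) and *Mfsd4a* (0.985), so the granule gene *Cadps2* named above had the pattern nearest to it. *Adcyap1* was followed by *Aars* (0.983), *Vip* (0.982) and *Podxl2* (0.981), *Trhr2* by genes that included *Gabrd* (0.972) and *Lrtm2* (0.970), and *Vipr1* by *Cspg5* (0.978), *Cacng3* (0.973) and *Mboat7* (0.973). For *Crh* the genes were *Rps6kc1* (0.975), *Vopp1* (0.974) and *Prrg3* (0.971), for *Crhr1* *Atrnl1* (0.985), *Cds1* (0.982) and *Zdhhc8* (0.982), for *Cckbr* *Nlk* (0.988), *Ppme1* (0.987) and *Clstn1* (0.985), and for *Trhr* *Fam171b* (0.946), *Rab27b* (0.935) and *Timm10* (0.931). The evenly expressed *Adcyap1r1* had the weakest neighbours, *Cops7b* (0.832), *Slc1a4* (0.821) and *Atp6v0b* (0.815).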

How the data were processed

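The deposited files held raw read counts per Ensembl gene, 1 file per library, which the authors made by trimming with TrimGalore, aligning to mouse genome GrCm38r73 with STAR, keeping uniquely mapped reads of at least 20 nt and counting with HTSeq. Libraries came from a stranded poly(A) kit, and the strand setting of the counting and the tool versions are not given in the sources used here. Between 24950537 and 33405081 counts per library fell on genes, and lines that name no gene were left out of all totals.

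Genes that reached 10 counts in 1 or more of the 18 libraries were tested with edgeR 4.0.16 (quasi-likelihood test, TMM, R 4.3.3), and p-values were adjusted by Benjamini-Hochberg over all 17545 genes and called under 0.05. Genotypes were compared within each region, regions within each genotype, and the difference of the genotype effect in all 18 libraries. CPM and RPKM used TMM over 18 libraries and union exon lengths of GENCODE M21, and log2 CPM used a prior count of 2. Scripts were tested on simulated data. The 18 pairs of libraries of the same group differed by 6.61 to 54.9 in chi-square per degree of freedom, so none was counted as a duplicate. The 10 genes and all lists were chosen with earlier results of these data known. All 10 genes were named in every comparison. Of the other lists those called between genotypes were named, as were the ligands and receptors that pair with the 10 genes and the 3 closest genes by correlation, where the mean log2 CPM had to reach 1. Of these closest genes, 1 is not reported here.

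Animals were read from the deposited file names, by which WT striatum replicates 1, 2 and 3 are the animals of replicates 3, 1 and 2 of the other WT regions. Libraries of the same animal deviated together across regions (r = 0.0426 to 0.539), so the regions are paired by animal. In hippocampus, WT and *Pcm1*-/- libraries of the same number deviated together in each pair (r = 0.124 to 0.609). Those of other numbers ran from -0.551 to 0.311, so the ranges overlapped, and the libraries share only a number. Alternatives were DESeq2 1.42.0, its size factors, other count filters, lane, 1 fit of all libraries, replicate blocks and each library left out.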

Additional observations from a re-analysis of the deposited data

How the results depend on the processing

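In frontal cortex 2 of the 10 genes were called, against 5 with DESeq2, 0 with lane as a covariate, 0 in 1 fit of all 18 libraries, and 0 to 3 with each library left out in turn, where the count over all 17545 genes ran from 11 to 825. Over all genes the main count was 306, against 690 with DESeq2, 29 with lane, 176 in 1 fit, 665 with the number block and 505 of 26966 with no count filter. The replicate number as a block raised the count among the 10 genes to 5, adding *Adcyap1*, *Trhr* and *Trhr2* (edgeR adjusted p = 0.0337, 0.0289 and 0.0332), but same-numbered libraries there correlated at 0.0308 to 0.373 and share only a number. In striatum DESeq2 called 3 and testing without a count filter 1 (*Trhr2*, edgeR adjusted p = 0.0429), against 0, and same-numbered libraries correlated at -0.346 to 0.276. Over all genes these 2 settings called 488 of 17463 and 61 of 26966 in striatum, against 5 of 17545. In hippocampus DESeq2 called 1 and 1 fit of all libraries 1, against 0. Over all genes they called 220 of 17517 and 205 of 17545 in hippocampus, against 3. Between regions *Cck* between hippocampus and frontal cortex in WT became called with the animal block, DESeq2, no count filter and 1 fit of all libraries. That fit also added *Adcyap1r1* between striatum and frontal cortex in WT and lost *Crh* between striatum and hippocampus in *Pcm1*-/-. The animal block changed no other call, and the number block changed no call in striatum or hippocampus. For the difference of the genotype effect the count ran from 0 to 1 with each library left out. The same alternatives were run for the other lists after the data had been seen. Of the 15 processing and granule genes 3 were called in frontal cortex, against 5 with DESeq2, 5 with the number block (both adding *Chga* and *Chgb*), 0 with lane, 1 in 1 fit of all libraries and 0 to 4 with each library left out, and DESeq2 called 3 in striatum (*Scg2*, *Chgb* and *Pam*), against 0. Of the further genes of these systems DESeq2 and the 1 fit each called 1 in hippocampus (*Vipr2*), against 0.

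Directions reversed only with a library left out, in differences that were not called. Over the libraries left out, the log2 difference between genotypes of *Adcyap1* ran from -0.46 to 0.078 in striatum and from -0.66 to 0.42 in hippocampus. In WT that of *Crhbp* between hippocampus and frontal cortex ran from -0.15 to 0.077, and between striatum and hippocampus *Crhr1* ran from -0.21 to 0.0088, *Adcyap1r1* from -0.11 to 0.0097 and *Crh* from -0.030 to 0.84. The cause was not tested. Counts of 2 to 59 reads limit *Trhr2* in hippocampus and *Crh* and *Adcyap1* in striatum. Limits set from counts cover counting error only.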
